A study of Mus musculus with 6 samples.

Results

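The 40 genes described here encode proteins that copy DNA or that divide a cell, and they were chosen by name: 17 act in DNA replication and 23 in mitosis. All 40 were present among the 35853 mouse genes measured, and 38 had enough counts to be tested among 11406 tested genes. The 2 left out, Mcm3 and Mcm6, encode subunits of the replicative helicase. RNA came from blood neutrophils of wild-type BALB/c mice that carried tumours of 4T1, a mouse mammary carcinoma line, implanted orthotopically. Blood was taken 4 weeks after implantation, and cells stained for Ly6G, the protein by which mouse neutrophils are gated, were sorted by their surface Ly6C. The series holds 3 Ly6C-high and 3 Ly6C-low libraries. Both groups came from tumour-bearing mice, and no library from mice without a tumour was analysed here. Whether each library came from its own mouse is not stated, and p-values therefore reflect differences between libraries that may be technical. In bulk RNA, fewer cells of a type and less RNA per cell cannot be told apart.

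Levels of the division genes were low in both groups. An adjusted p of 0.05 was passed by 0 of the 38 tested genes and by 0.0351% of all tested genes. Their 40 genes together held 0.0103% to 0.0152% of all TPM, the transcript level corrected for length. Most point estimates were lower in Ly6C-high libraries, and 3 of the 38, Mcm7, Gins2 and Cenpe, passed an unadjusted p only. Of all tested genes 7.34% were lower at an unadjusted p. The mitosis genes had their highest level in Ly6C-low replicate 3 in 21 of 23 cases, whereas the tested replication genes did so in 6 of 15. Of all tested genes 25.9% did so.

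Before a cell copies its DNA, the Mcm2 to Mcm7 proteins are loaded on replication origins as a ring, and Cdc45 and the GINS complex turn that ring into a moving helicase. After replication, Cdk1 with its cyclins starts mitosis, kinesins and kinetochore proteins move the chromosomes, and the anaphase-promoting complex ends it. In the neutrophil lineage these programmes run in the precursors of the bone marrow. They are shut down as the cells mature, and circulating neutrophils do not normally divide. Genes of replication are commonly driven by E2F factors, and many mitosis genes carry a cell cycle homology region (CHR), through which the DREAM complex represses them in resting cells.

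The promoters of the genes show that the replication and mitosis sets differ in these elements. Windows of 300 bases, 250 before and 50 after the start, were available from RefSeq (build GRCm38.p6) for 33 of the 40 genes. There was no entry for Ccne2, Mcm4, Ccna2, Tpx2, Aurkb, Gins2 and Stmn1. Both strands were searched for TTTGAA (the CHR), for CCAAT, and for the E2F letters TTTCCCGC, TTTGGCGC, TTTCGCGC and TTTGCCGC. The CHR letters occurred in 14 of 19 mitosis genes (73.7%) and in 2 of 14 replication genes (14.3%), against 20.2% of 27025 genes with a window of the same length. The E2F letters occurred in 7 of 14 replication genes (50.0%) and in 1 of 19 mitosis genes (5.26%), against 2.60% of all genes. CCAAT occurred in 17 of 19 mitosis genes (89.5%), in 10 of 14 replication genes (71.4%) and in 41.1% of all genes. CHR and CCAAT occurred together in 14 of 19 mitosis genes and in 8.97% of all genes. The promoters of 4 genes are shown because their values recur below. Mki67 and Cdk1 are mitosis genes with CHR letters, Mcm7 is a replication gene with E2F letters, and Cenpe is a mitosis gene without a CHR match. Capitals mark the matches on either strand, and each line reads 5′ to 3′ on the gene's strand.
Mki67: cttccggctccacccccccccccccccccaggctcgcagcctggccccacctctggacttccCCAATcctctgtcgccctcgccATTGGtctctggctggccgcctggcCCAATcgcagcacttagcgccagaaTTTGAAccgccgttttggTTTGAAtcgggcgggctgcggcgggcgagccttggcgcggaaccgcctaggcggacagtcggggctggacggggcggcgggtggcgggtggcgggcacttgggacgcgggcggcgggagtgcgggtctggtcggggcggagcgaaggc
Cdk1: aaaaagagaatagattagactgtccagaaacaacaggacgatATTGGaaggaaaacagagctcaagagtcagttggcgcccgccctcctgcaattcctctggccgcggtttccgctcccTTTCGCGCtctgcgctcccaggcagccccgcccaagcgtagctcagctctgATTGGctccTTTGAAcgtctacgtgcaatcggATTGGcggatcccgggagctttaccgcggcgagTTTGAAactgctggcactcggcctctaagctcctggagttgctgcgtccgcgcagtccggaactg
Mcm7: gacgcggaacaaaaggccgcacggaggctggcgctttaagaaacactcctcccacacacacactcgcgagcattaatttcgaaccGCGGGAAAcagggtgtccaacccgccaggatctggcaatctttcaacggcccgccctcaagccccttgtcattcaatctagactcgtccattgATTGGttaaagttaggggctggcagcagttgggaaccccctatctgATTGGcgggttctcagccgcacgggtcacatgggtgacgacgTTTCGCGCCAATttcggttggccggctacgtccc
Cenpe: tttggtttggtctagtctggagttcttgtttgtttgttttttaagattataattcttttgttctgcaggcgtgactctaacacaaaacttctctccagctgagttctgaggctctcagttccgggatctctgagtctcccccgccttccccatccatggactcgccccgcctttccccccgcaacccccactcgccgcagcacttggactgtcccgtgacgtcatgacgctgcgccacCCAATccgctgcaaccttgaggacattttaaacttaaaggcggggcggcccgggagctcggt
The Mki67 window (chr7:135716330-135716629, minus strand) held TTTGAA beginning 116 and 98 bases before the start. The Cdk1 window (chr10:69352863-69353162, minus strand) held TTTGAA 71 and 15 bases before the start, and TTTCGCGC 131 bases before it, and so was the mitosis gene with an E2F match. The Mcm7 window (chr5:138171834-138172133, minus strand), the upstream of its 2 annotated starts, held an E2F match 165 bases before the start and another at base 17 after it, which overlaps a CCAAT. The Cenpe window (chr3:135212313-135212612, plus strand) held a single match, a CCAAT 12 bases before the start. A match is a description of the letters and not of binding.

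The libraries held 17192372 to 20973623 estimated counts each. The sort was visible in the RNA. Ly6c2, which encodes Ly6C2, had 220, 299 and 235 TPM in the Ly6C-high libraries and 27.8, 47.6 and 34.1 TPM in the Ly6C-low libraries. Ly6c2 was higher in Ly6C-high by a log2 fold change of 2.90 (SE 0.21; edgeR adjusted p = 0.00382), and Ly6c1 by 3.07 (SE 0.22; edgeR adjusted p = 0.00273). Without Ly6C-low replicate 3 the edgeR adjusted p values were 0.0885 and 0.0620, with log2 fold changes of 2.84 and 3.03. Ly6g lay between 633 and 1282 TPM, and all 8 neutrophil markers listed were detected in every library. They summed to 365232 to 370500 TPM in Ly6C-high and 337026 to 353377 TPM in Ly6C-low, without overlap and lowest in Ly6C-low replicate 3. At an unadjusted edgeR p 3 of the 8 were higher in Ly6C-high and 0 lower, against 6.92% and 7.34% of all tested genes. Over all tested genes Ly6C-low replicate 3 stood apart, with a first principal component score of 38.0 (32.8% of variance) where the rest scored -19.7 to 3.91. The median fold changes of the named sets are given below with and without that library. So are the counts of estimates below 0 and of named genes lower at an unadjusted p, and many estimates of single genes. Overlaps, intervals, marker lists and the medians of other pathway lists are given with all 6 libraries only.

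The genes differed in level by over 2 orders of magnitude. Kif23, a kinesin of the central spindle, had the highest mean, and its TPM was 32.0, 37.9 and 39.6 in Ly6C-high and 38.5, 40.1 and 47.5 in Ly6C-low. Pcna, the sliding clamp of the DNA polymerases, followed with 12.5, 10.4 and 11.1 TPM in Ly6C-high and 12.0, 12.6 and 16.5 TPM in Ly6C-low. Both genes overlapped between groups and had their highest value in Ly6C-low replicate 3. Cenpa, the histone H3 variant of centromeres, had 12.0, 10.8 and 10.3 against 11.3, 12.7 and 12.1 TPM, also with overlap. Neighbours in this order, Pcna and Cenpa, did not differ beyond their spread. At the other end 22 of the 40 genes had a mean TPM under 1, among them the helicase subunits Mcm2, Mcm3, Mcm5 and Mcm6 and the kinetochore genes Cenpe and Cenpf. The median mean level of the 40 genes was 0.806 TPM, against 7.14 TPM over all tested genes, and their median mean count was 27.3 against 238.

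**Figure D1:**
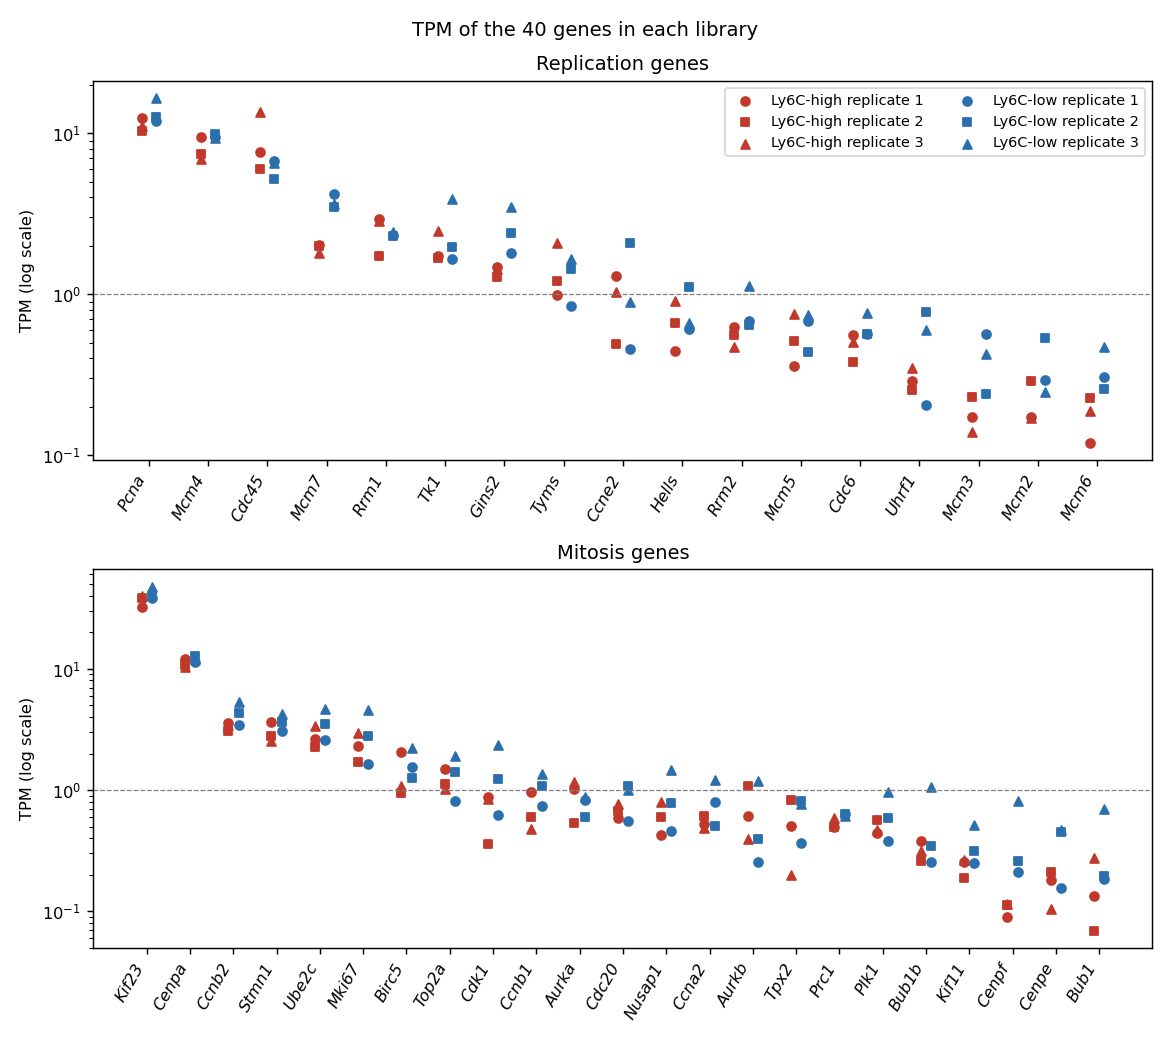
Each point is the TPM of a gene in a library (log scale), for the 17 replication genes (top) and the 23 mitosis genes (bottom), ordered by mean level, and the dashed line is at 1 TPM. Kif23, Pcna and Cenpa lie above 10 TPM, 22 genes have a mean under 1 TPM, and blue triangles (Ly6C-low replicate 3) top most mitosis genes.

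Among the replication genes, 2 of the 7 tested among 9 origin licensing and helicase genes were lower in Ly6C-high at an unadjusted p, as were 7.34% of all tested genes. Mcm7, a subunit of the helicase ring, had 2.02, 1.98 and 1.80 TPM in Ly6C-high and 4.2, 3.48 and 3.64 TPM in Ly6C-low. All 3 Ly6C-high libraries were below all 3 Ly6C-low libraries. The Mcm7 means were 1.93 ± 0.116 and 3.78 ± 0.380 TPM (SD, n = 3 each). In counts Mcm7 had 61.4, 57 and 52 against 113, 86 and 85, and the edgeR log2 fold change was -0.74 (SE 0.20; unadjusted p = 0.00317, edgeR adjusted p = 0.193). Gins2, a subunit of the GINS complex, had 1.47, 1.28 and 1.44 TPM in Ly6C-high and 1.80, 2.41 and 3.48 TPM in Ly6C-low, again with no overlap. Its log2 fold change was -0.74 (SE 0.22; unadjusted p = 0.00575, edgeR adjusted p = 0.213). Without the filter on low counts Gins2 had an edgeR adjusted p of 0.00960.

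None of the other 5 tested genes of this set passed an unadjusted p. Mcm4, the most abundant ring subunit, had 9.5, 7.44 and 6.95 TPM in Ly6C-high and 9.53, 9.89 and 9.38 TPM in Ly6C-low, with a log2 fold change of -0.16 (SE 0.12; unadjusted p = 0.201). Cdc45, the helicase activator, had 7.67, 6.00 and 13.6 TPM in Ly6C-high and 6.73, 5.17 and 6.53 TPM in Ly6C-low. Ly6C-high replicate 3 held the highest Cdc45 value, the other 5 libraries overlapped, and the log2 fold change was 0.55 (SE 0.26; unadjusted p = 0.0595). Mcm5 had a positive estimate (0.36) and Mcm2 and Cdc6, the loader of the ring, negative ones (-0.30 and -0.27), with every 95% interval across 0. Leaving out Ly6C-low replicate 3, Mcm5 had 0.57 and Cdc6 -0.13. Mcm3, with 1 to 20 counts per library, and Mcm6, with 6 to 21, had the highest of their 6 values in Ly6C-low replicate 3. The ring subunits thus spanned Mcm4 at about 8.8 TPM and Mcm6 at 0.12 to 0.468 TPM, although the proteins act as 1 complex.

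For the rest of the replication set no gene passed an unadjusted p. Pcna had a log2 fold change of -0.17 (SE 0.14; unadjusted p = 0.258), and -0.043 without Ly6C-low replicate 3. Of the 4 genes of deoxynucleotide synthesis, Rrm2, the regulated subunit of ribonucleotide reductase, had groups without overlap (20, 20 and 15 counts against 25, 22 and 37) and a log2 fold change of -0.61 (95% interval -1.35 to 0.13). Rrm1, the large subunit of the same enzyme, had -0.05, Tk1, thymidine kinase, -0.19, and Tyms, thymidylate synthase, 0.21. Without Ly6C-low replicate 3 these were -0.33 for Rrm2, -0.085 for Rrm1, 0.10 for Tk1 and 0.40 for Tyms. Uhrf1 and Hells, which maintain DNA methylation and chromatin behind the fork, had -0.27 and -0.044, and the G1/S cyclin Ccne2 had -0.12. Uhrf1 had -0.016, Hells -0.15 and Ccne2 -0.081 without Ly6C-low replicate 3. Over the 15 tested replication genes 12 estimates lay below 0, with a median of -0.17.

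The mitosis genes had a median mean level of 0.773 TPM, against 1.04 TPM for the replication genes. At an unadjusted p 1 of the 23 was lower in Ly6C-high, as were 7.34% of all tested genes. Cenpe, a kinesin of the kinetochore, had 15, 9 and 16 counts in Ly6C-high and 19, 23 and 31 counts in Ly6C-low. These counts did not overlap between groups, but its TPM values (0.180, 0.210 and 0.105 against 0.155, 0.450 and 0.466) did. The log2 fold change was -0.87 (SE 0.37; unadjusted p = 0.0368, edgeR adjusted p = 0.324). Cenpf, a further kinetochore protein, had -0.75 (95% interval -1.77 to 0.27) and Cenpa 0.0096 (-0.27 to 0.29). Cenpf had -0.11 without Ly6C-low replicate 3.

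The 4 genes of the mitotic cyclin and Cdk1 set all had negative estimates, and none passed a test. Cdk1, the kinase that starts mitosis, had 0.870, 0.361 and 0.849 TPM in Ly6C-high and 0.623, 1.24 and 2.37 TPM in Ly6C-low. The groups overlapped, Ly6C-low replicate 3 was the highest library, and the log2 fold change was -0.80 (SE 0.48; unadjusted p = 0.121) on 7 to 27 counts per library. Ccnb2, a B-type cyclin, had 3.55, 3.06 and 3.41 against 3.44, 4.29 and 5.30 TPM (log2 fold change -0.27, SE 0.19; unadjusted p = 0.182). Ccnb1 had a log2 fold change of -0.69 and Ccna2 of -0.54, with intervals across 0. These 4 estimates were -0.31 for Cdk1, -0.13 for Ccnb2, -0.45 for Ccnb1 and -0.16 for Ccna2 without Ly6C-low replicate 3.

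Mki67 and Top2a, chromosome proteins widely used to mark dividing cells, overlapped between groups. Mki67 had 2.32, 1.72 and 2.93 TPM in Ly6C-high and 1.63, 2.81 and 4.53 TPM in Ly6C-low. Its lowest and its highest value were both Ly6C-low libraries, and the log2 fold change was -0.31 (SE 0.29; unadjusted p = 0.330). Top2a had 1.49, 1.12 and 1.02 TPM in Ly6C-high and 0.819, 1.40 and 1.91 TPM in Ly6C-low, with -0.13 (SE 0.26; unadjusted p = 0.616). Without Ly6C-low replicate 3 both estimates turned positive, at 0.00 (0.0043) for Mki67 and 0.16 for Top2a.

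Ube2c, the ubiquitin-conjugating enzyme of the anaphase-promoting complex, had 2.64, 2.28 and 3.39 TPM in Ly6C-high and 2.58, 3.49 and 4.64 TPM in Ly6C-low (log2 fold change -0.26, SE 0.28; unadjusted p = 0.380). Its partner Cdc20 had a log2 fold change of -0.19. Stmn1, which destabilises microtubules, had 3.65, 2.81 and 2.53 TPM in Ly6C-high and 3.08, 3.62 and 4.27 TPM in Ly6C-low, with -0.22 (SE 0.25; unadjusted p = 0.402). Kif23 had -0.15 (SE 0.11; unadjusted p = 0.198), and the other 4 spindle genes, Kif11, Tpx2, Nusap1 and Prc1, had estimates of -0.54 to -0.24. In the fit without Ly6C-low replicate 3 Ube2c had -0.035, Cdc20 -0.037, Stmn1 -0.11, Kif23 -0.035 and those 4 genes -0.29 to -0.052. Among the 6 mitotic kinases and checkpoint genes Bub1, a checkpoint kinase, had the lowest estimate of all 38 genes (-0.95, 95% interval -1.95 to 0.05) on 4 to 13 counts, with groups that did not overlap in CPM (counts scaled to library size). Bub1b had -0.57, Aurkb -0.57 and Plk1 -0.38, while Aurka had 0.25 and Birc5 0.065, all with intervals across 0. Without Ly6C-low replicate 3 Bub1b had -0.010, Aurkb -0.059, Plk1 0.013, Birc5 0.41, Aurka 0.34 and Bub1 -0.85.

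The counts of calls among the 38 genes are given beside the shares of all tested genes. By the edgeR quasi-likelihood test with Benjamini-Hochberg adjustment 0 of 38 passed 0.05, where 0.0351% of all tested genes did, and the smallest adjusted p was 0.193 (Mcm7). DESeq2 also called 0 (1.86% of the genes it gave an adjusted p), but gave an adjusted p for only 6 of the 38, and limma voom called 0 of 38 (0.0263%). At an unadjusted edgeR p under 0.05, 3 of 38 were lower in Ly6C-high (7.34% of all tested genes) and 0 were higher (6.92%). At an unadjusted p DESeq2 had 2 lower (5.38% of all genes) and 1 higher (6.91%), and voom had 4 lower (7.08%) and 0 higher (7.14%). Groups did not overlap in CPM for 5 genes that were lower in Ly6C-high, Mcm7, Gins2, Rrm2, Bub1 and Cenpe (10.9% of all tested genes), and for 0 that were higher (10.3%). Estimates lay below 0 for 32 of 38 genes, against 50.8% of all tested genes, and the median was -0.27 against 0.00 (-0.0045). For the 23 mitosis genes the median was -0.38, with 20 below 0. The 95% interval stayed within a 2-fold change in either direction for 18 of 38 genes, against 78.2% of all tested genes. For the other 20 a change of over 2-fold lay within the interval.

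**Figure D2:**
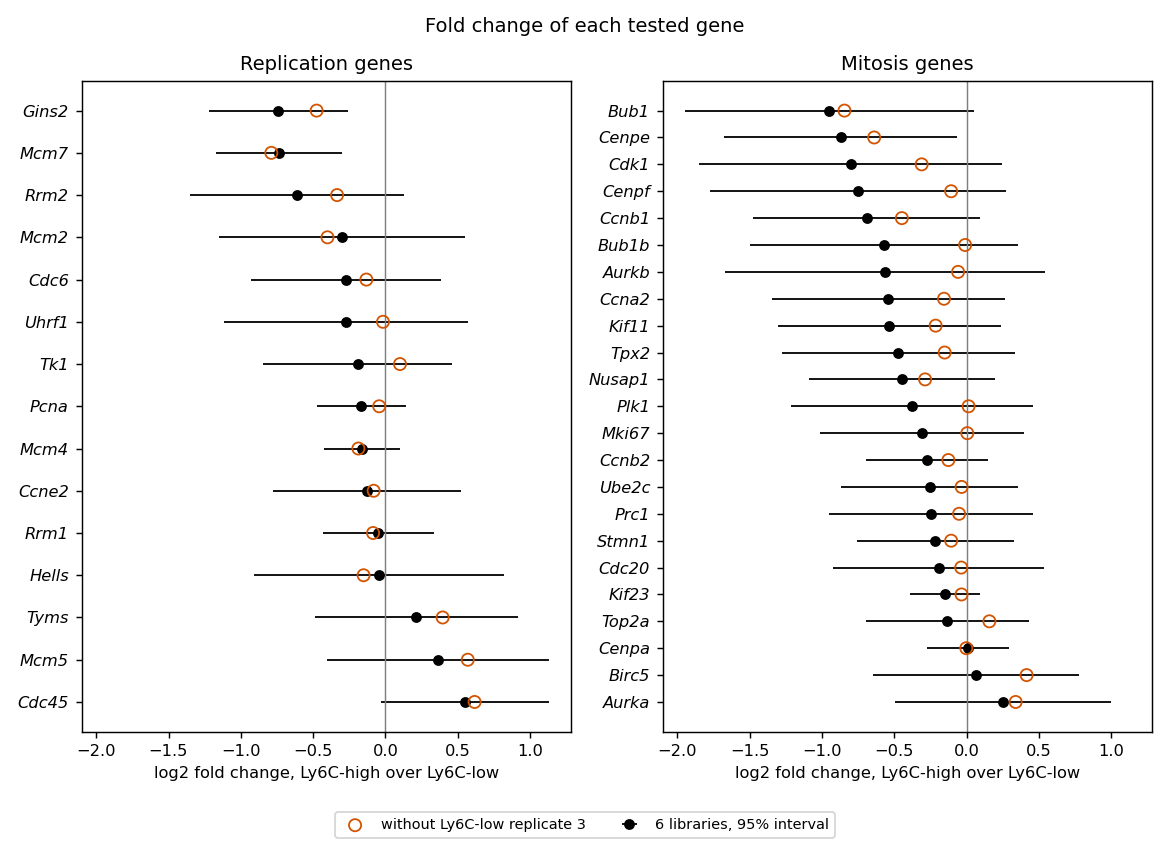
Each black point is the edgeR log2 fold change of a tested gene, Ly6C-high over Ly6C-low, with its 95% interval, and each open circle is the estimate without Ly6C-low replicate 3. The intervals of Mcm7, Gins2 and Cenpe lie wholly below 0, and most open circles of mitosis genes lie nearer to 0 than the black points.

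The size of the negative medians depended on single libraries. Without Ly6C-low replicate 3 the median of the mitosis genes was -0.059 and that of the replication genes -0.085, 29 of 38 estimates were below 0, and 2 genes were lower at an unadjusted p (6.07% of all genes tested then). Mcm7 kept its estimate (-0.79, unadjusted p = 0.00261), Gins2 had -0.48 (unadjusted p = 0.0233), and Cenpe had -0.64 (unadjusted p = 0.162). Without Ly6C-low replicate 1 the medians were -0.57 for mitosis and -0.28 for replication, and 8 genes were lower at an unadjusted p (6.92% of all genes tested then).

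Library by library, replication and mitosis genes were compared by their summed TPM and by each gene's deviation from its own mean. The 17 replication genes summed to 42.8, 35.3 and 46.9 TPM in Ly6C-high and 43.4, 45.9 and 53.5 TPM in Ly6C-low. The 23 mitosis genes summed to 67.3, 67.9 and 71.6 TPM and to 69.5, 79.0 and 97.9 TPM. Ly6C-low replicate 3 had the highest sum of both sets, and both sums overlapped between groups. The ratio of replication to mitosis was 0.636, 0.521 and 0.655 in Ly6C-high and 0.625, 0.581 and 0.547 in Ly6C-low, a mean log2 difference of 0.043 that moved between -0.019 and 0.15 when a library was left out. Since Kif23 alone gave 32.0 to 47.5 TPM of the mitosis sum, the mitosis sum was also taken without it, at 35.3, 29.9 and 32.0 against 31.0, 38.9 and 50.4 TPM, again with overlap. The replication sum was also taken without its 3 most abundant genes, Pcna, Mcm4 and Cdc45. It was 13.2, 11.5 and 15.18 TPM in Ly6C-high and 15.21, 18.2 and 21.1 TPM in Ly6C-low. Here the groups did not overlap, but only by 15.18 against 15.21 TPM. This sum keeps Mcm7 and Gins2, and it leaves out Cdc45, whose highest value was in Ly6C-high replicate 3. With those 3 genes and Kif23 and Cenpa left out, the ratio of replication to mitosis was also taken. It was 0.569, 0.601 and 0.701 in Ly6C-high and 0.769, 0.697 and 0.552 in Ly6C-low (means 0.624 and 0.673). The means differed in the opposite direction to those over all 40 genes, but both ratios overlapped between groups, so neither gives a direction.

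On the log2 CPM scale, where each gene counts equally, the mean deviation of the mitosis genes reached 0.60 in Ly6C-low replicate 3, while the other 5 libraries lay between -0.23 and 0.086. That of the replication genes was 0.25 in the same library and between -0.15 and 0.034 elsewhere, with overlap between groups. The median deviations of the replication genes did not overlap. They were -0.12, -0.17 and -0.15 in Ly6C-high and -0.050, 0.11 and 0.25 in Ly6C-low. The mean deviation of Ly6C-low replicate 1 (-0.19 for mitosis genes) lay within the range of the Ly6C-high libraries. Ly6C-low replicate 2 (0.086) lay above all 3 Ly6C-high libraries. The Ly6C-low libraries thus ranged from -0.19 to 0.60 in mitosis genes, while the group means were 0.16 and -0.16.

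**Figure D3:**
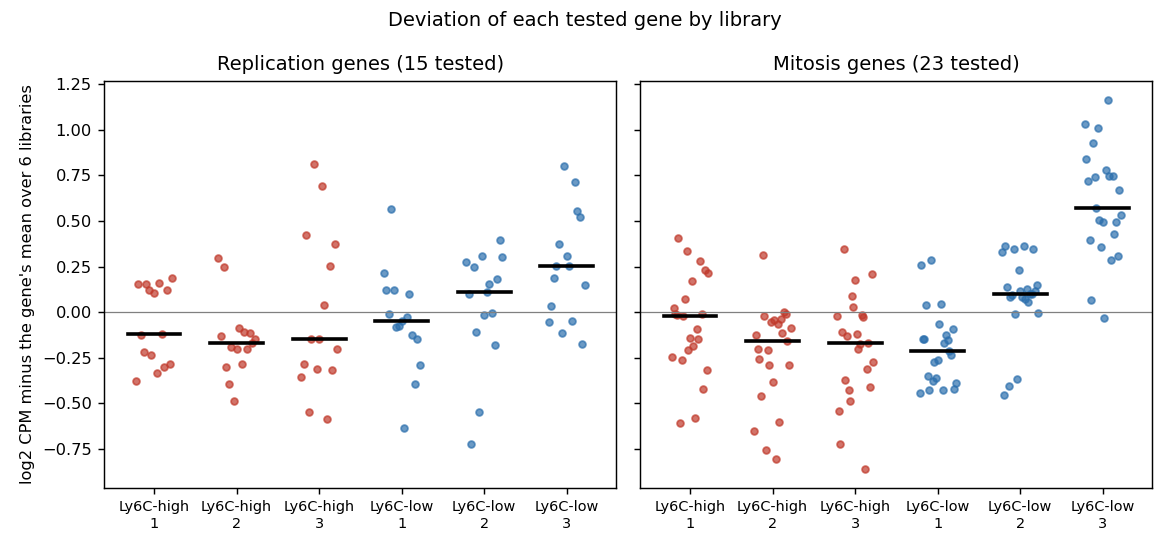
Each point is the log2 CPM of a tested gene minus its mean over the 6 libraries, by library, for 15 replication and 23 mitosis genes, and black bars are medians. The median of the mitosis genes stands at 0.57 in Ly6C-low replicate 3 and at -0.21 to 0.10 elsewhere. The replication genes are spread on both sides of 0 in every library. Their medians are -0.17 to -0.12 in Ly6C-high and -0.050 to 0.25 in Ly6C-low.

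Of the 38 tested genes 27 (71.1%) had their highest CPM in Ly6C-low replicate 3, against 25.9% of all tested genes. The gap was present in genes of low and of middle abundance. Among tested genes with a mean count under 50 it was 21 of 26 of the named genes against 27.9% of 3024 genes, and from 50 to 500 counts 5 of 10 against 32.9%. Aurka and Cenpa were the mitosis genes with their highest CPM elsewhere, in Ly6C-high replicate 1, and both carry CHR letters in their promoter. The share was lower among genes of the same processes outside the list of 40, at 13 of 32 other tested mitosis genes (40.6%) and 12 of 34 other tested replication genes (35.3%). These shares are descriptions of 1 library and were not tested.

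Markers of other cell types are given beside these values. The 6 basophil and mast cell markers summed to 3.01, 4.16 and 5.07 TPM in Ly6C-high and 7.20, 14.6 and 32.1 TPM in Ly6C-low, and all 6 had their highest CPM in Ly6C-low replicate 3. The most abundant of them, Mcpt8, a basophil protease, ranged from 0.897 to 15.2 TPM, and Prss34 from 0.436 to 3.94 TPM. The 6 eosinophil markers, led by Siglecf and Ccr3, summed to 16.1 to 19.9 TPM in Ly6C-high and 31.5 to 32.7 TPM in Ly6C-low, highest in Ly6C-low replicate 2. The 9 markers of dividing neutrophil precursors summed to 236 to 256 against 239 to 257 TPM, mostly from Igsf6 and Cebpe, with 256 TPM in Ly6C-high replicate 3 and 257 TPM in Ly6C-low replicate 3, and 5 of the 9 had their highest CPM in Ly6C-low replicate 3. Of the defining precursor proteases in that list, Elane was at 0 in 2 libraries and reached at most 0.516 TPM, Ctsg reached 0.545 TPM, Mpo 1.44 TPM and Prtn3 11.3 TPM. The part of these cells in the division genes' levels was not tested.

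The remaining lists, like the eosinophil list, had their highest sum in another library. The 9 measured erythroid markers, led by Hbb-bs and Hba-a2, summed to 686 to 2423 TPM in Ly6C-high and 1729 to 2505 TPM in Ly6C-low, with Klf1 at 0 throughout. The 7 stem and early progenitor markers, led by Kit and Myb, summed to 18.7 to 35.4 against 34.7 to 60.3 TPM, with Hoxa9 at 0. The 6 monocyte markers, led by Csf1r and Ccr2, summed to 101 to 106 against 113 to 130 TPM. That sum follows the abundant Csf1r. Yet 4 of the 6 monocyte markers were higher in Ly6C-high at an unadjusted edgeR p and 0 lower, with a median log2 fold change of 0.74. By the same measure 3 basophil and mast cell markers (median -1.73) and 3 eosinophil markers (median -0.66) were lower, and 0 of either list higher. Of all tested genes 7.34% were lower and 6.92% higher. The 8 T cell markers, led by Cd3d and Cd3g, summed to 29.3 to 46.9 against 25.8 to 37.5 TPM, and the 6 B cell markers, led by Ighm and Cd79a, to 8.30 to 11.2 against 8.29 to 11.8 TPM. The 5 NK cell markers, led by Gzma and Ncr1, summed to 1.88 to 3.62 against 0.753 to 1.91 TPM, and the 5 platelet markers, led by Pf4 and Ppbp, to 10.04 to 21.6 against 12.9 to 26.7 TPM. The 7 epithelial markers, led by Cdh1 and Krt7, summed to 3.44 to 5.16 against 3.22 to 6.48 TPM, and Krt8, Krt18, Krt14 and Krt19 were at 0 in all 6 libraries.

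**Figure D4:**
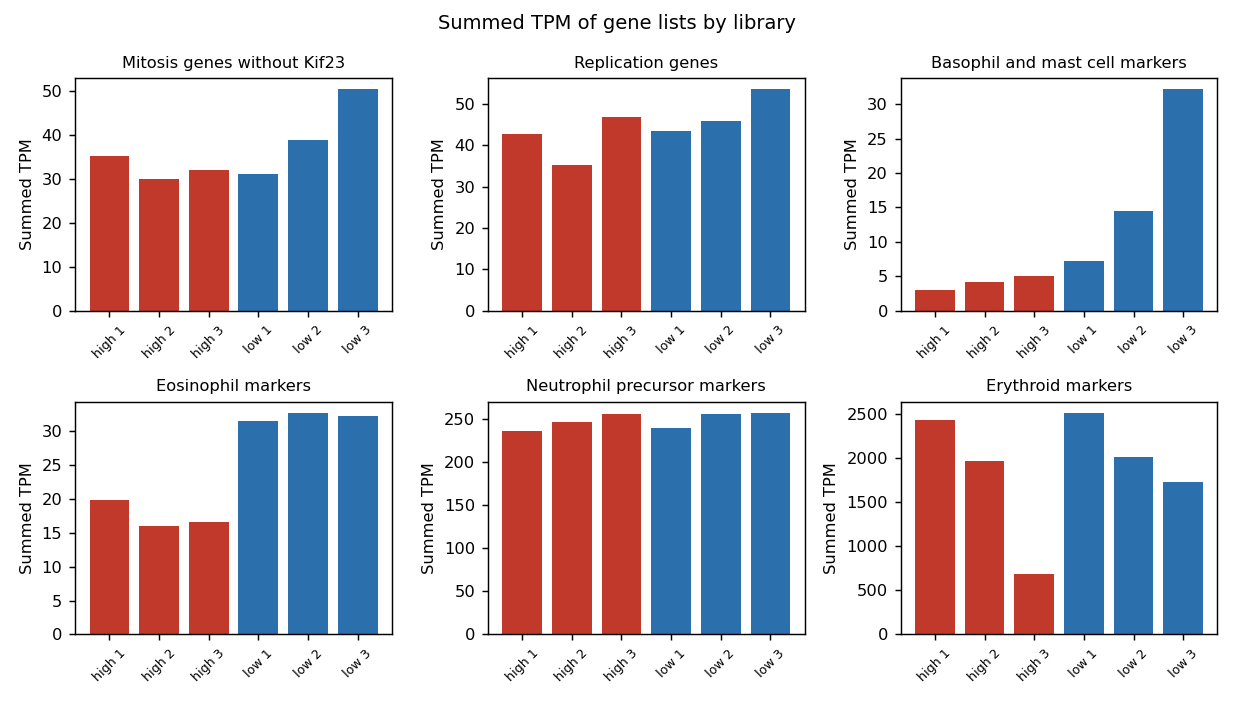
Bars are summed TPM per library (red Ly6C-high, blue Ly6C-low; each axis starts at 0) for the mitosis genes without Kif23, the replication genes and 4 marker lists. Ly6C-low replicate 3 is the highest bar for mitosis genes (50.4 TPM), replication genes (53.5 TPM) and basophil and mast cell markers (32.1 TPM), and not for the eosinophil or erythroid markers.

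The transcripts behind the gene totals differed between members. At the median 94.4% of a gene's counts fell on protein-coding transcripts, and 25 of 40 genes had 90% or more there. For 4 genes, Gins2, Cdc45, Hells and Tk1, over 50% of counts fell on transcripts annotated as retained introns, which keep part of an intron and are not annotated as coding. Cenpa, as the fifth gene below 50% coding, had 38.6% of its counts on coding transcripts.

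For Gins2 the software's split put the group difference on the noncoding transcript. Gins2-203, a retained-intron transcript, held 36.8, 65.2 and 69.0 counts in Ly6C-high and 101, 130 and 171 counts in Ly6C-low. The coding Gins2-201 held 61.5, 15.4 and 30.7 counts against 15.4, 15.4 and 30.8. In this split the groups did not overlap for Gins2-203 and overlapped for the coding transcript. The coding estimates recurred near 15.4 and 30.8 counts in several libraries, for transcripts of similar length (3662 and 3900 bases). The Gins2 split may thus rest on few reads, and it does not show which transcript differed. For Cdc45 the high value of Ly6C-high replicate 3 lay on the retained-intron transcript Cdc45-204, with 128, 67.2 and 250 counts in Ly6C-high and 88.5, 40.5 and 66.8 in Ly6C-low. All coding Cdc45 transcripts together held 66, 86.5 and 89 counts against 90, 81 and 97. In Mcm7 the difference lay on coding transcripts: Mcm7-201 held 50.8, 45.6 and 40.4 counts in Ly6C-high and 82.9, 64.2 and 62.1 counts in Ly6C-low. The level of Kif23 depended on short transcripts. Of its mean of 39.3 TPM, 53.9% came from 9 transcripts that each held under 5% of its counts, with a median length of 579 bases. Its coding transcripts gave 15.1 ± 1.40 TPM in Ly6C-high and 18.4 ± 3.28 TPM in Ly6C-low (SD, n = 3 each). Reads that fit several transcripts were divided by the authors' software, so these splits are estimates and were not tested.

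**Figure D5:**
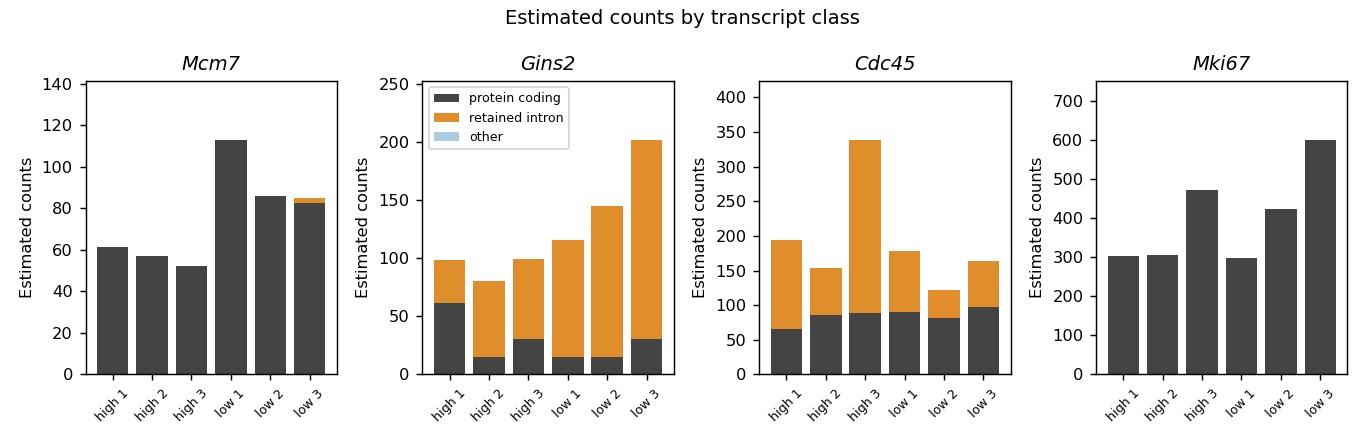
Stacked bars are the estimated counts per library of Mcm7, Gins2, Cdc45 and Mki67, by annotated transcript class. By the software's estimated split, Gins2 and Cdc45 are mostly on retained-intron transcripts (orange). In that split these carry the rise of Gins2 in Ly6C-low and the high Cdc45 bar of Ly6C-high replicate 3 (250 counts). Mcm7 and Mki67 are nearly all protein coding.

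Other genes of these pathways were read from lists in the same fit, and 0 of them passed an adjusted p of 0.05. At an unadjusted p 7.34% of all tested genes were lower and 6.92% higher, against which the counts below are to be read. Of the other replication genes 34 of 45 were tested, with a median log2 fold change of -0.07, 1 lower and 1 higher at an unadjusted p. Orc2, of the origin recognition complex, had 0.356, 0.204 and 0.338 TPM in Ly6C-high and 0.556, 0.755 and 0.750 TPM in Ly6C-low, without overlap (log2 fold change -1.02, SE 0.35; unadjusted p = 0.0131, edgeR adjusted p = 0.248). Rfc2, a subunit of the clamp loader, was far more abundant and went the other way, with 69.2, 75.5 and 71.8 against 57.6, 62.3 and 66.1 TPM (0.30, SE 0.08; unadjusted p = 0.00444, edgeR adjusted p = 0.201). Of the other mitosis genes 32 of 50 were tested, with a median of -0.07 and 0 in either direction at an unadjusted p. The smallest p among them belonged to Smc4, of condensin (0.18; unadjusted p = 0.0653), and to Cks2, a Cdk1 partner (-0.23; unadjusted p = 0.0768). With all 6 libraries the 32 other mitosis genes had a median nearer to 0 than the 23 named ones (-0.38), a difference that was not tested. Without Ly6C-low replicate 3 the median of the 23 named genes was -0.059. That of the other 32 was not taken without that library.

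Lists of genes of the decision to enter or leave the cycle had higher median levels than the division genes (0.806 TPM). The medians were 1.87 TPM for transcription factors, 3.20 TPM for G1 cyclins, kinases and phosphatases, and 2.74 TPM for inhibitors. In these lists 9 of 20, 3 of 11 and 3 of 8 measured genes had a mean under 1 TPM. Cdkn2d, an inhibitor of Cdk4 and Cdk6, had 219, 255 and 257 TPM in Ly6C-high and 240, 226 and 243 TPM in Ly6C-low, and overlapped between groups (log2 fold change 0.15; unadjusted p = 0.128). Cdkn1a, the p21 inhibitor, had 9.54, 14.3 and 17.5 against 14.4, 17.8 and 33.1 TPM and was highest in Ly6C-low replicate 3 (-0.54; unadjusted p = 0.198). Without that library its log2 fold change was -0.14. Of the 6 tested of 8 inhibitors, 0 passed an unadjusted p. E2f2, an activator of replication genes, had 42.5, 53.4 and 39.8 TPM in Ly6C-high and 33.1, 37.3 and 31.3 TPM in Ly6C-low, without overlap (0.42, SE 0.12; unadjusted p = 0.00350, edgeR adjusted p = 0.194). Its binding partner Tfdp1 had 86.6, 94.9 and 85.2 against 78.4, 85.0 and 70.1 TPM (0.29; unadjusted p = 0.0104, edgeR adjusted p = 0.235). These were the 2 transcription factors of 17 tested that were higher at an unadjusted p, with 0 lower and a median of 0.04. Among 9 tested G1 cyclins, kinases and phosphatases, with a median of 0.12, Ccnd2, a D-type cyclin, was lower, with 3.19, 3.48 and 3.57 against 4.85, 4.67 and 5.73 TPM and no overlap (-0.44, SE 0.10; unadjusted p = 0.00144, edgeR adjusted p = 0.189). Cdc25b, a phosphatase that activates Cdk1, had 34.1, 31.5 and 30.6 against 29.7, 25.6 and 21.1 TPM (0.43; unadjusted p = 0.0130, edgeR adjusted p = 0.247). Cdk2 was the other gene of that list higher at an unadjusted p (log2 fold change 0.29).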

How the data were processed

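Poly(A) RNA libraries were made from sorted cells with a kit that marks strand, and sequenced as single-end reads, per the labels' protocols. The authors quantified reads with kallisto and gave GRCm39 as the build, per the submitters' processing notes. The kallisto version, index and strand setting are items not given in the sources used here. Since strand use is unknown, reads of overlapping antisense genes cannot be told apart, and reads shared with near-identical copies are divided by estimate. The deposited tables hold estimated counts and TPM per transcript, per the file headers. Of 117486 transcripts 99.04% were matched by identifier to genes of GENCODE M21 (build GRCm38, used for names and transcript classes).

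Estimated counts were summed per gene, rounded and compared by edgeR 4.0.16 under R 4.3.3 (filterByExpr, TMM scaling, robust quasi-likelihood F test, group as the term), with Benjamini-Hochberg adjustment over all 11406 genes kept and a threshold of 0.05. CPM are TMM-scaled and log2 CPM use a prior count of 2. The biological coefficient of variation common to all genes was 13.7%. No molecular identifiers were used against PCR copies. Libraries differed by a chi-square per gene of 14.4 to 69.8, so none was counted as a copy of another. The procedure was tested on simulated counts. Alternatives were DESeq2 1.42.0, limma 3.58.1 voom, other scalings and filters, length-scaled TPM, a replicate block and leaving out each library.

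The members and lists were chosen with earlier results of these data known. Values in every library are given for members with an unadjusted p under 0.05, the 10 most abundant members, and Mki67, Top2a, Cdk1, Pcna, Mcm7, Gins2 and Cenpe, and for the 2 genes of each pathway list with the smallest p; other-cell lists are given by their 2 most abundant genes. Gins2, Cdc45, Kif23 and Mcm7 transcripts, Rrm2, Bub1 and Cdk2 were singled out after their values were seen. The listed genes Lin54 and Ahsp were not analysed here.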

Additional observations from a re-analysis of the deposited data

How the results depend on the processing

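The count of named genes past the adjusted threshold stayed at 0 under every alternative but the absence of a filter, where it was 1 (Gins2, with 2.13% of all genes past it), and all genes past it numbered 439 instead of 4. Genes past the threshold numbered 8 with library size alone, 126 with DESeq2, 2 with length-scaled TPM and 61 with the replicate block, and 2 to 22 when a library was left out, the 22 without Ly6C-low replicate 3. With library size alone the median of all genes moved to -0.11, the division genes lower at an unadjusted p numbered 5 (14.6% of all genes), and the replication median was -0.28. Relative to all genes the median of the 38 genes was then -0.27. All-gene calls at an unadjusted p became 1661 lower and 335 higher, against 837 and 789. Leaving out a library gave 2 to 8 division genes lower at an unadjusted p, replication medians of -0.28 to -0.085 and mitosis medians of -0.57 to -0.059, with the extremes from Ly6C-low replicates 1 and 3. Pathway genes lower at an unadjusted p numbered 2 (7.34% of all genes), against 7 with library size alone (14.6%), 5 with length-scaled TPM (6.47%), 4 with the replicate block (8.88%) and 1 to 5 when a library was left out. After seeing the data, estimates below 0 were counted without Ly6C-low replicate 3, at 29 of 38.

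Some estimates changed sign. Cenpa turned to -0.10 with library size alone, -0.00030 with no filter and -0.026 with length-scaled TPM, and ranged from -0.078 to 0.070 when a library was left out, below 0 without Ly6C-high replicate 1 or Ly6C-low replicate 1 or 3. Mki67 ranged from -0.55 to 0.0043 and Top2a from -0.34 to 0.16, above 0 only without Ly6C-low replicate 3. The cause was not tested.

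Replicate numbers gave a correlation of deviations of 0.24, -0.037 and 0.24 for the same-numbered pairs. Those of replicates 1 and 3 were the highest of all pairs, whereas Ly6C-high replicate 2 correlated best with Ly6C-low replicate 1 (0.11). These values do not settle whether the numbers pair the libraries, and the main fit did not pair them. With the replicate block 0 division genes passed the adjusted threshold (0.535% of all genes). At an unadjusted p 3 of 38 were lower (8.88% of all genes) and 1, Cdc45, was higher (9.14%). Cdc45 had a log2 fold change of 0.51 (edgeR unadjusted p = 0.00885, edgeR adjusted p = 0.133). Counts under 50 for most genes limit what can be detected, and the intervals cover the spread between libraries only.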

Other observations

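Further regulators of entry into and exit from the cycle were abundant in every library. Ccnd3, a D-type cyclin that activates Cdk4 and Cdk6, had 430, 466 and 442 TPM in Ly6C-high and 445, 406 and 291 TPM in Ly6C-low, with its lowest value in Ly6C-low replicate 3 and groups that did not overlap in CPM (log2 fold change 0.33, SE 0.16; edgeR adjusted p = 0.376). Cdkn1b, the p27 inhibitor, had 168, 162 and 167 against 156, 194 and 191 TPM, and its log2 fold change was -0.03 (SE 0.10). Rbl2, a pocket protein of the DREAM complex, had 22.0, 23.7 and 22.7 against 23.7, 25.6 and 25.8 TPM (-0.03, SE 0.09). These 3 genes were chosen after their values were seen.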
